A study of Mus musculus with 24 samples.

Results

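Oxidative phosphorylation genes were followed through the livers of 24 male mice measured on Affymetrix U74Av2 arrays, 1 mouse to an array. A probe set was taken as a member when its annotated symbol began with Nduf, Uqcr, Atp5, Cox4, Cox5, Cox6, Cox7 or Cox8, or was Sdha, Sdhb, Sdhc, Sdhd, Cycs, Cyc1, Atpif1 or Slc25a4. Cox6a2, the cytochrome c oxidase isoform of striated muscle, was left out of the members and read as a muscle marker. These symbols picked 102 of the 12422 probe sets with values, 0.821% of them, for 74 of the 8251 genes named on the array. A further 10 probe sets carried several symbols and were not named. Of the 102 member probe sets, 72 lay above the floor on all arrays, 21 on some, and 9 on none. The floor was 15.7 intensity units, at which every lower value was set. Complex I had 38 probe sets for 29 genes, complex I assembly 4 for 2, complex II 4 for 4, complex III 9 for 8, complex IV 21 for 13 and complex V 22 for 14. Cytochrome c (Cycs), the supercomplex protein Cox7a2l, the ATP synthase inhibitor Atpif1 and the ADP/ATP carrier Slc25a4 had 1 probe set each. No probe set was annotated to a mitochondrially encoded subunit under its mt- symbol, so the nuclear genes alone are described.

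The mice were wild-type or PPARα-null, all on a mixed SV129/C57BL/6 background and 9 to 12 weeks old, in 8 groups of 3. Mice 1 to 12 were wild-type and 13 to 24 null, each in the order control, HS, WY and WY+HS. In each genotype 1 group served as control, 1 received heat shock (HS), 1 was fed WY-14,643 (WY), an agonist of PPARα, and 1 received both (WY+HS). WY was given at 500 ppm in the diet for 1 week, and HS lasted 40 min at 42 °C with liver taken 4 h later. The null mice lack PPARα in every tissue throughout life, and whole liver was hybridised. In such bulk tissue, fewer cells of a type and less RNA per cell cannot be told apart. Ppara itself read 181 to 357 in the 12 wild-type livers and 103 to 210.2 in the 12 null livers, a log2 difference in control mice of -0.92 ± 0.22 (SE, adjusted p = 0.0594). The position of its probes relative to the disrupted part of the gene was not known here, so the signal that remained in null mice checks no label.

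Oxidative phosphorylation is the process by which mitochondria make most of the ATP of a cell. Complexes I and II pass electrons from NADH and succinate to ubiquinone, complex III hands them to cytochrome c, and complex IV gives them to oxygen, while complexes I, III and IV pump protons that drive the ATP synthase, complex V. The liver uses this chain for gluconeogenesis, urea synthesis and the oxidation of fatty acids, and PPARα is the nuclear receptor that raises fatty acid oxidation genes in hepatocytes.

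Arrays from 3 mice stood apart. The intensities of 12 skeletal muscle genes, one of them Cox6a2, summed to 1339 in wild-type control mouse 1 and to 1293 and 1188 in null HS mice 16 and 17. In the other 21 mice the sum ran from 256.5 to 399, and it was 284.6 in mouse 18, the third null HS mouse. Acta1, the skeletal muscle actin, read 662, 591.5 and 478 in these 3 arrays and lay at the floor in mouse 18. Counts of calls are therefore also given without these arrays, a choice made after seeing the data, which leaves mouse 18 alone in the null HS group and assumes that it varied like the mice of the other groups. A sum of 4 fat genes, with Fabp4 and Cidea called, was 402 to 689.9 in the 6 wild-type mice fed WY and 63.0 to 112 in the other 18. The other fat genes did not follow: Adipoq read 15.7 to 21.6 in those 6 mice and 15.7 to 34.5 in the other 18. The Ucp1 probe sets read 20.1 or less in every mouse. The 7 hepatocyte markers summed to 25800 to 27730 in the 6 wild-type mice fed WY and to 28050 to 32180 in the other 18, and Ttr and Ahsg were called lower with WY in wild-type mice. Not every marker was lower: Apoa1 read 8412 in those 6 mice and 7287 to 8198 in the other 18. Alb read 8767 to 9080 in those 6 and 8198 to 9080 in the other 18. Of the other cell type markers, those called higher with HS in null mice were the collagen genes Col1a1 and Col3a1, the stellate cell marker Des, the endothelial Cdh5, Fabp4 and 3 of the 19 muscle probe sets. Without the 3 arrays, with mouse 18 alone in the null HS group, a Col1a1 probe set changed by 2.74. Krt19 of bile duct cells, added in that setting, lay at the floor on 23 arrays and read 16.35 in mouse 18. Its other probe set lay at the floor on all 24. With WY in wild-type mice the muscle gene Atp2a1, the pancreatic Cela1, the endothelial Kdr and the stellate cell gene Dcn were called lower. The part of these signals in the results was not tested.

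Levels of complexes I, III, IV and V were higher with WY in wild-type mice, and that of complex II was lower after HS in null mice. The level of a complex was the mean log2 intensity over its genes, each by its brightest probe set. WY moved complex I in wild-type mice from 8.52 ± 0.06 (SD, n = 3) to 8.86 ± 0.02, complex III from 10.29 ± 0.08 to 10.57 ± 0.05, complex IV from 7.54 ± 0.03 to 7.96 ± 0.04, and complex V from 8.63 ± 0.08 to 9.03 ± 0.12. In each of these 4 complexes the 3 WY mice lay above the 3 controls. The change of complex IV was 0.417 as a mean over its genes and 0.278 as a median. Its largest changes were those of Cox6b2 (2.14) and Cox5a (0.987), whose probe sets are described below. Complex II, the succinate dehydrogenase, was at 9.58 ± 0.06 before and 9.58 ± 0.03 with WY. In null mice the same diet left complex II at 9.52 ± 0.09 against 9.48 ± 0.12 and complex I at 8.66 ± 0.02 against 8.72 ± 0.07. HS in null mice took complex II to 9.15 ± 0.05, below every control mouse, and the complex I assembly factors from 6.65 ± 0.08 to 6.11 ± 0.17. The HS changes of complexes I, III, IV and V in null mice were only -0.06, -0.05, -0.07 and -0.11. In each of these the HS mice overlapped the controls. Without the 3 arrays with muscle signal, WY changes in wild-type mice were 0.34, -0.02, 0.27, 0.44 and 0.43 on the log2 scale for complexes I to V, and HS changes in null mice, then resting on mouse 18, were -0.13, -0.29, -0.18, -0.11 and -0.25. The scaling of the arrays moved these levels. With no scaling complex II also stood higher with WY, by 0.478, and with a common median the change of complex III was 0.126 in place of 0.282. These levels are a description and were not tested.

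**Figure D1:**
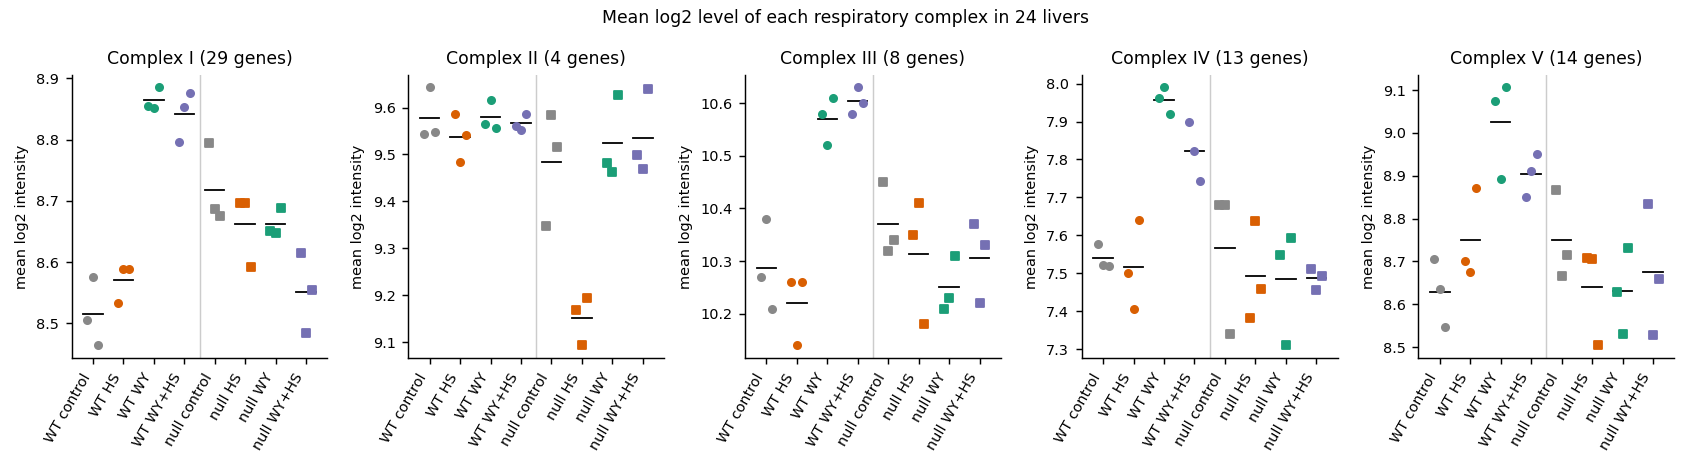
Level of each complex in each of the 24 mice, as mean log2 intensity over the genes of the complex (y axis), by group (x axis), with 1 point per mouse and a bar at the group mean. Complexes I, III, IV and V stand higher in the wild-type WY and WY+HS groups, while complex II stands lowest in the null HS group at 9.15. Arrays were quantile normalized, and with no scaling complex II too was higher with WY in wild-type mice, by 0.478.

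In wild-type mice HS called none of the members, with or without the 3 arrays. Over all probe sets 0.0322% were called up and 0.00805% down at an adjusted p under 0.05 (limma, Benjamini-Hochberg over 12422 probe sets). At an unadjusted p under 0.05, 3 member probe sets were higher and 3 lower, and the methods' test, a one-way analysis of variance followed by Scheffe contrasts, called 0. The median log2 change of the members was 0, as it was over all probe sets. Cycs, the electron carrier between complexes III and IV, read 223, 277 and 229.5 after HS and 175, 207 and 182 in controls, which did not overlap, with a log2 change of 0.37 ± 0.13 (SE) and an adjusted p of 0.645.

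In null mice HS called 17 member probe sets down and 4 up. These were 16.7% and 3.92% of the members, where 3.89% and 3.18% of all probe sets were called in those directions. At an unadjusted p under 0.05, 29 member probe sets were lower and 13 higher. The median log2 change was 0 over the member probe sets and -0.08 over the genes by their brightest probe set. Of the 10 probe sets with several symbols, which are not among the members, 2 were called up and 0 down. In all 17 that fell, each HS mouse was below each control mouse, and in the 4 that rose each was above. The calls rest on these same mice, so the separation adds no support to them. Without mice 1, 16 and 17 there were 4 calls, all falls (Ndufv2, Ndufs3, Ndufb10 and 1 of the Atp5c1 probe sets), while all 17 changes kept a negative value. Calls over all probe sets were also fewer in that setting, in both directions, with mouse 18 alone in the null HS group. Without mouse 17 alone the count was 13, with 12 falls and 1 rise. It was 3 up and 18 down with arrays set to a common median, 12 by the methods' test, and 0 both with no scaling between arrays and when the spread was taken only from the groups compared.

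Among the complex I genes, 7 of 29 fell. Ndufb8, an accessory subunit of the membrane arm, read 756, 797 and 582 in null controls and 393, 389 and 426 after HS. Every HS mouse was below every control, mouse 18 included, and the log2 change was -0.81 ± 0.11 (adjusted p = 0.000383), or -0.73 without the 3 arrays with muscle signal (adjusted p = 0.0554). Ndufv2, an iron-sulfur subunit of the NADH-oxidising module, read 1063, 1063 and 992 in controls and 626, 796 and 595 after HS. Its log2 change of -0.64 ± 0.08 (adjusted p = 0.000135) was -0.80 without the 3 arrays, at an adjusted p of 1.3e-05, and mouse 18 was the lowest of the 3. A dimmer Ndufv2 probe set had a change of 0.33 that was not called, with values of 140.0, 142 and 81.3 after HS, the higher pair in the mice with muscle signal. Of the other falls, Ndufv1 (the flavin-bearing, NADH-binding subunit) had -0.39, Ndufs1 (the largest iron-sulfur subunit) -0.45, Ndufs3 (a core subunit) -0.34, and the accessory subunits Ndufb6 and Ndufb10 -0.48 and -0.33. These span the NADH-binding module, the core of the peripheral arm and the membrane arm.

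Both complex I assembly factors on the array fell. Ndufaf4 read 76.6, 83.5 and 74.6 in null controls and 42, 54.4 and 51.2 after HS. Its log2 change was -0.68 ± 0.14 (adjusted p = 0.00577). Ndufaf1, which acts in assembly of the membrane arm, had a change of -0.41 ± 0.11 (adjusted p = 0.0242), with mouse 18 at 117 against 125 to 138 in controls and 89.4 and 88.4 in mice 16 and 17. Without the 3 arrays its change was -0.15 and was not called. Each factor had a second probe set, at the floor after HS and in controls alike.

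Succinate dehydrogenase, the complex shared with the citric acid cycle, was lower in all 4 of its genes, 2 of them called. Sdhb, the iron-sulfur subunit, read 1266, 1377 and 1224 in null controls and 842, 952 and 1044 after HS. The groups did not overlap, and the log2 change was -0.45 ± 0.08 (adjusted p = 0.00252), or -0.30 without the 3 arrays (adjusted p = 0.258). Sdhc, a membrane anchor, had a change of -0.23 ± 0.06 (adjusted p = 0.0335). Sdhd, the other anchor, had -0.38 (adjusted p = 0.0612) and the flavoprotein Sdha -0.26 (adjusted p = 0.227). In wild-type mice the HS changes of these genes ran from -0.12 for Sdha to 0.05 for Sdhd, with none called.

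In the rest of the chain the calls were fewer. Uqcrc1, a core protein of complex III, went from 1142, 1100.0 and 1089 to 889, 916 and 959, a log2 change of -0.27 ± 0.06 (adjusted p = 0.00731). Cyc1, the cytochrome c1 subunit of the same complex, had -0.09 and was not called. Cycs read 189, 217 and 183 in null controls and 145, 135 and 134 after HS, with no overlap and a change of -0.51 ± 0.13 (adjusted p = 0.0232). The change in mouse 18 alone was -0.55, with no call (adjusted p = 0.3). None of the 21 complex IV probe sets was called, with 2 higher and 4 lower at an unadjusted p under 0.05 and a median over its genes of -0.03.

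In complex V, 3 of 14 genes fell. Both probe sets of Atp5c1, the gamma subunit of the rotating central stalk, fell. The first read 797, 940.5 and 674 in null controls and 379.9, 355 and 498 after HS (log2 change -0.97 ± 0.15, adjusted p = 0.000908), and the second 1078, 1136 and 983 against 756, 699 and 778 (-0.52 ± 0.06, adjusted p = 0.000125). In both, the 3 HS mice lay well under the controls, and the second was still called without the 3 arrays (-0.45, adjusted p = 0.016). Atp5o and Atp5j belong to the peripheral stalk that holds the catalytic head still. Atp5o read 763, 625 and 544 before and 463, 414 and 382 after HS (-0.61 ± 0.14, adjusted p = 0.0152), and Atp5j had a change of -0.56 ± 0.09 (adjusted p = 0.000966). The catalytic-head subunit Atp5a1 was at 1754, 1805 and 1837 in controls and 1929, 1943 and 1936 after HS and was not called.

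Against these falls, Atpif1, which blocks ATP hydrolysis by the synthase, rose. It read 169, 138 and 215 in null controls and 438, 401 and 329 after HS, a log2 change of 1.18 ± 0.17 (adjusted p = 0.000357), with the group means 174 and 389 a factor of 2.26 apart. All 3 HS mice were above the controls. Without the 3 arrays the change was 0.945 and its adjusted p 0.0711. The heart and muscle carrier Slc25a4 read 19.1, 15.7 and 16.1 in controls and 124, 125 and 26.2 after HS. Its high values were in the 2 mice with muscle signal, and the change fell from 2.13 (adjusted p = 0.0297) to 0.63 (adjusted p = 0.998) without the 3 arrays. Of the other rises, Ndufa5 went from 0.53 to 0.20 (adjusted p = 1) without them, and an Ndufa3 probe set from 1.25 to 0.87, a call that was lost (adjusted p = 0.706). Ndufa5 read 1584 and 1578 in mice 16 and 17 and 1117 in mouse 18, against 868 to 1063 in controls.

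**Figure D2:**
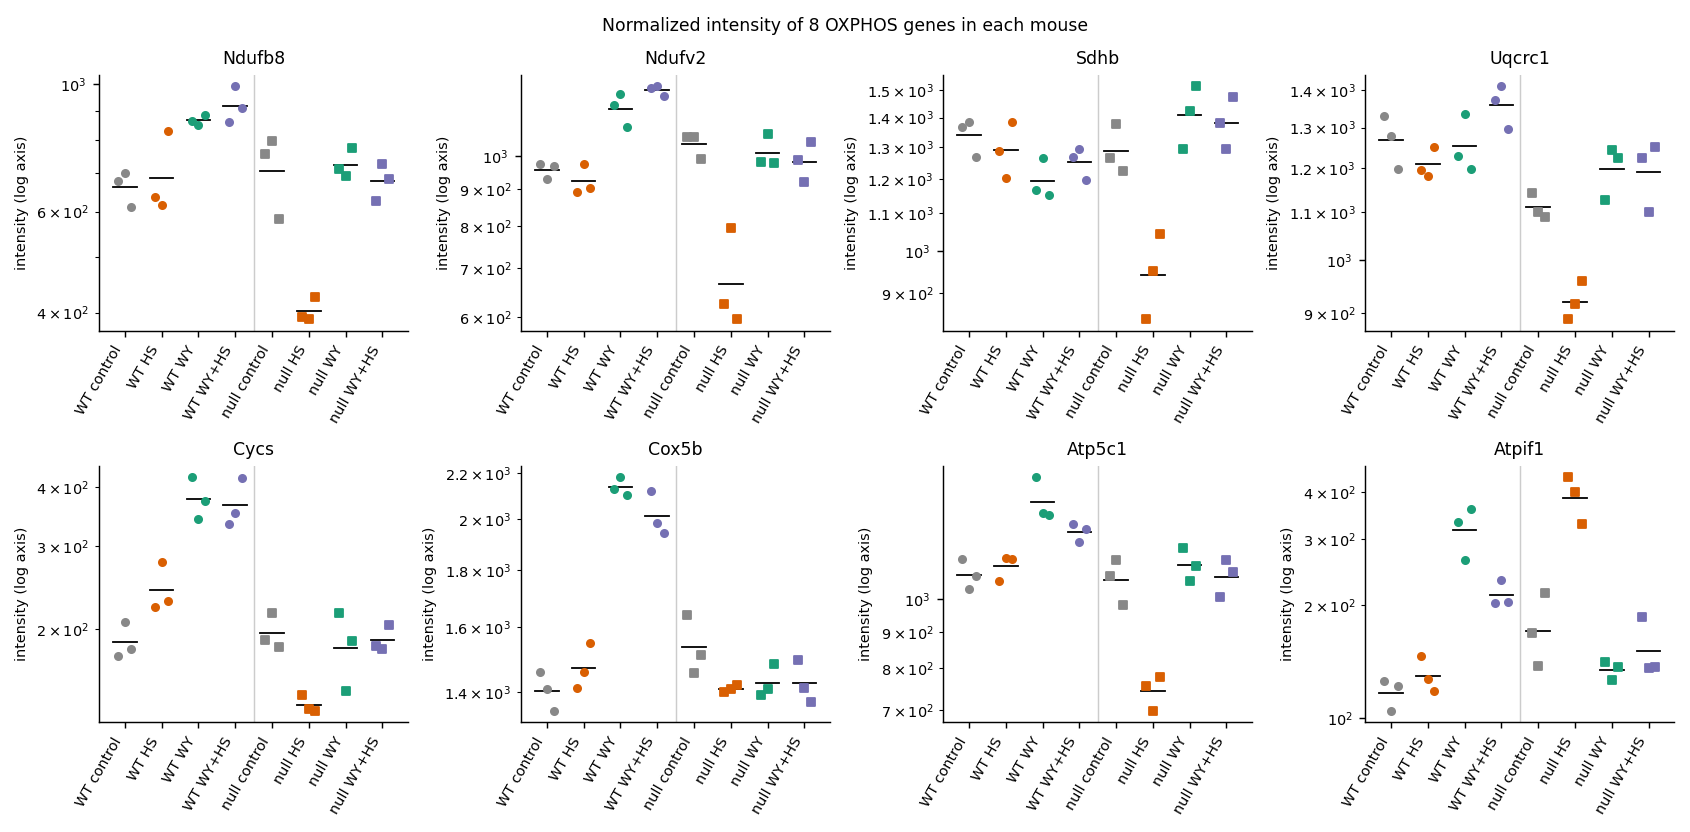
Intensity (log y axis) of 8 members in each mouse, by group, with a bar at each geometric mean. In the null HS group Ndufb8, Ndufv2, Sdhb, Uqcrc1, Cycs and Atp5c1 lie below the null controls in all 3 mice, Atpif1 lies above them, and Cox5b, Cycs and Atpif1 are high in the wild-type WY group.

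The difference in the HS response between genotypes was tested directly. Of the members, 10 had a lower HS change in null than in wild-type mice and 1 a higher one, or 9.8% and 0.98%, where 0.942% and 0.676% of all probe sets were called. The difference was -0.86 ± 0.16 for Ndufb8 (adjusted p = 0.0124), -0.88 ± 0.18 for Cycs (adjusted p = 0.0198), -0.90 ± 0.19 for Ndufaf4 (adjusted p = 0.0243) and 1.02 ± 0.23 for Atpif1 (adjusted p = 0.0356). Ndufb6, Ndufb10, Ndufv2, Atp5j, Atp5o and both Atp5c1 probe sets were the other calls. No gene of complexes II, III or IV passed this test. Without mice 1, 16 and 17, Ndufv2 (-0.76, adjusted p = 0.000376) and 1 Atp5c1 probe set (-0.53, adjusted p = 0.0384) were called. The count was also 4 to 7 when mouse 1, 3, 4, 5, 13, 14, 16 or 17 was left out alone, 5 with a common median, and 0 with no scaling.

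Upstream of the listed genes, the promoters give context for the named members. RefSeq start sites on GRCm38.p6 matched 61 of the 74 genes, with a window of 250 bases before to 50 after the start. The sequence TGCGCA, the core of the motif of NRF1, a transcription factor of respiratory genes, was in 27.9% of the members with a window and in 8.79% of all 27025 genes. The ETS-type motif CCGGAAG or its reverse complement was in 27.9% and 9.93%, the YY1 motif AAGATGGC in 13.1% and 3.19%, the estrogen-related receptor motif TCAAGGTCA in 1.64% and 0.466%, and CCAAT, the NF-Y motif, in 42.6% and 41.1%. All 5 were read on both strands, and none of these motifs shares its whole sequence with another. Among genes with a window, TGCGCA was in 5 of the 14 called lower after HS in null mice and in 9 of the 26 called higher with WY in wild-type mice, and CCGGAAG in 5 and 5. A match is a run of letters, not a shown site. The 250 bases before the start, 5′ to 3′ on the strand of the gene, are shown for a complex I subunit and an assembly factor that fell, a complex IV subunit that rose with WY, and the inhibitor that rose in both. Capitals mark the motifs. All 4 hold TGCGCA, which was in only 17 of the 61 members with a window, so they are not typical of the members.
Ndufb6 (complex I, chr4:40279422-40279671, minus strand): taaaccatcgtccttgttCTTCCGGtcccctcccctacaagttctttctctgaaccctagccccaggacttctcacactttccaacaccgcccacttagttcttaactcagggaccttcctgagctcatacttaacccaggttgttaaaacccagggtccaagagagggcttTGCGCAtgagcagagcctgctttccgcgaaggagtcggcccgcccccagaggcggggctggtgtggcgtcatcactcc
Ndufaf4 (complex I assembly, chr4:24897833-24898082, plus strand): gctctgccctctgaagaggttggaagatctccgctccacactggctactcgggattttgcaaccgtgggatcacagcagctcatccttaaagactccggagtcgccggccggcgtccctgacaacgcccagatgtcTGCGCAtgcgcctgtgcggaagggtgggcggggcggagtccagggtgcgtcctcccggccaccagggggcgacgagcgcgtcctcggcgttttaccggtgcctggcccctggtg
Cox6a1 (complex IV, chr5:115348959-115349208, minus strand): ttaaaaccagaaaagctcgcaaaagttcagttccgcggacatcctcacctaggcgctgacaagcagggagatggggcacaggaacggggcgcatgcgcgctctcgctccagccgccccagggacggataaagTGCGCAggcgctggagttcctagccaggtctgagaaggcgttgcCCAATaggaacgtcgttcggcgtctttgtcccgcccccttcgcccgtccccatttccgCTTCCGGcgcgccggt
Atpif1 (inhibitor of complex V, chr4:132535415-132535664, minus strand): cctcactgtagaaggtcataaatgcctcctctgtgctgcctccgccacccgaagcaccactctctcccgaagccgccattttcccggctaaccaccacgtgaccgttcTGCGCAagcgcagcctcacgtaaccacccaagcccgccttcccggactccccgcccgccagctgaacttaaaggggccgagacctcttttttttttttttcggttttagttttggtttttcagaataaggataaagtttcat

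WY in wild-type mice called 33 member probe sets up and 0 down. They were 32.4% of the members, where 5.59% of all probe sets were called up and 5.19% down. Of the 10 probe sets with several symbols, which are not among the members, 5 were called up. In 32 of the 33, all 3 WY mice were above all 3 controls, the exception being Ndufb6. That separation describes the mice that gave the calls and is no further support. The count of rises was 18, 21 and 20 when mice 3, 7 and 9 were left out in turn, 12 with a common median, 16 by the methods' test, 44 with no scaling, and 27 without the 3 arrays with muscle signal, with 0 falls in each. With no scaling the median of the 4617 brighter probe sets also rose, by 0.449, against 0.741 for the members. The fat genes Fabp4 and Cidea, but not Adipoq or Ucp1, were called higher in the same mice, and the part of this in the rises was not tested.

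**Figure D3:**
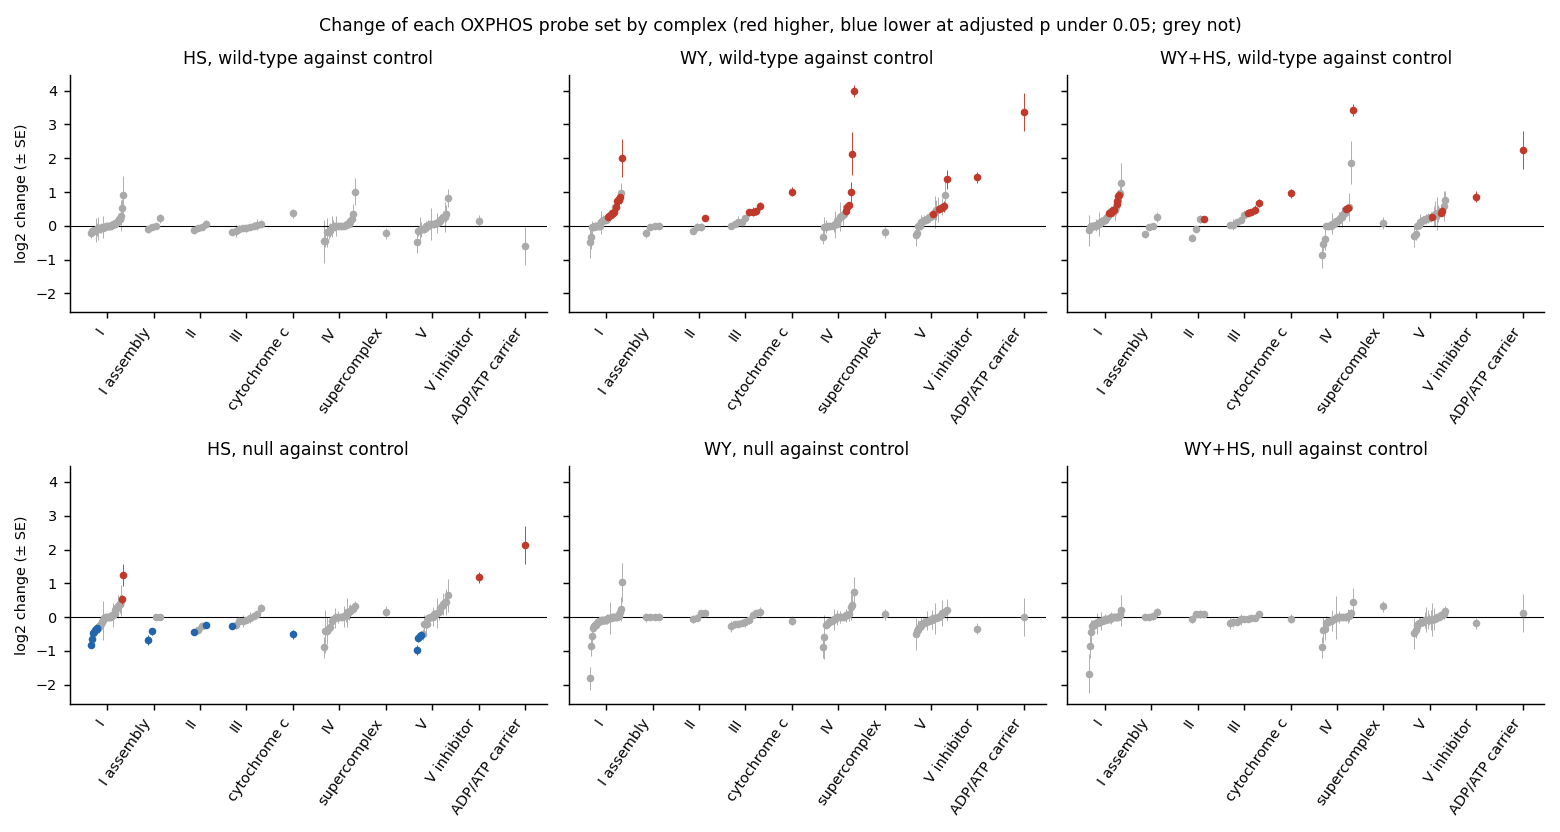
Log2 change of every member probe set (points) by complex, for HS and WY in each genotype, with the called probe sets marked. The called points lie above 0 for WY in wild-type mice (33 up, 0 down) and mostly below 0 for HS in null mice (17 down, 4 up), and no member was called for HS in wild-type or WY in null mice.

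Complex I gave 14 of the 33 rises, most of them accessory subunits. Ndufb3 read 674, 710.0 and 647 in wild-type controls and 1148, 1202 and 1157 with WY, a log2 change of 0.79 ± 0.08 (adjusted p = 4.73e-06). Ndufab1, the mitochondrial acyl carrier protein that also sits in complex I, read 481, 391 and 410.1 against 794, 710.0 and 799, a change of 0.85 ± 0.11 (adjusted p = 3.27e-05). Both were clear of overlap. Ndufc1 and Ndufv3 had changes of 0.77 and 0.73. Of the genes that fell with HS in null mice, 4 were also called here with smaller rises: 0.28 for Ndufv2, 0.33 for Ndufb6, 0.39 for Ndufb8 and 0.42 for Ndufb10. Ndufa10 had the largest change in complex I, 2.01 ± 0.57 (adjusted p = 0.0313), from 21.1, 32.9 and 15.7 to 57.4, 189.9 and 65.2, yet it read 59.6 to 232 in null controls.

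Complex II had 1 call, Sdhc, with 1142, 1248 and 1189 in controls and 1407, 1401 and 1356 with WY (0.22 ± 0.06, adjusted p = 0.0295). The change of Sdhb was in the other direction, from 1367, 1386 and 1268 to 1165, 1266 and 1151, and was not called. In complex III, Uqcr11, Uqcr10, Uqcrb and Uqcrc2, none of them a subunit that carries a redox centre, rose by 0.59, 0.42, 0.41 and 0.43 on the log2 scale. Cyc1 read 2809, 2298 and 2291 in controls and 2856, 3021 and 2809 with WY, where one control equalled the lowest WY mouse, and was not called.

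Cycs, the mobile carrier, rose 2.01-fold. It read 175, 207 and 182 in controls and 419, 342 and 374 with WY, with a log2 change of 1.01 ± 0.13 (adjusted p = 3.8e-05). In complex IV, Cox5b, a zinc-binding nuclear subunit, read 1460.3, 1407 and 1347 against 2128, 2179 and 2103 (0.61 ± 0.05, adjusted p = 1.73e-07). Cox6a1, the isoform of liver and most other tissues, read 2410.2, 2359 and 2237 against 3503, 3385 and 3385 (0.55 ± 0.08, adjusted p = 0.000156). In all 3 of these genes every WY mouse was above every control.

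Cox6b2, known as the testis isoform of a complex IV subunit, had the largest change of all members. The dimmer of its called probe sets read 17.4, 19 and 33.1 in wild-type controls and 389.8, 304 and 364 with WY, a log2 change of 3.98 ± 0.18, or 15.8-fold. It lay at the floor in all 12 null mice. The brighter one read 242, 262 and 287 against 1095, 1177 and 1195 (2.14 ± 0.64, adjusted p = 0.0394), and this call was lost under 9 of 15 alternatives. The suffixes of both names mark probe sets that can be less specific than plain ones. A suffix of some kind was carried by 37 of the 102 member probe sets, which gave 12 of the 33 rises. One Cox5a probe set was at the floor in all 3 controls and read 30.3, 45.5 and 22.1 with WY, at least 1.98-fold higher (adjusted p = 0.0419).

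Of the ATP synthase genes, Atp5a1 rose from 1906, 1676 and 1614 to 2587, 2312 and 2558 (0.52 ± 0.08, adjusted p = 0.000359). Atp5pb, of the peripheral stalk, went from 162, 192 and 77.8 to 398, 253 and 418 (1.37 ± 0.28, adjusted p = 0.00315). The groups were separate in both, and Atp5c1, Atp5g2 and Atp5l were also called, at 0.34, 0.49 and 0.58. Atpif1 rose here too, from 125, 105 and 122 to 334, 265 and 361 (1.44 ± 0.17, adjusted p = 1.3e-05). Slc25a4 read 57.5, 15.7 and 15.7 in controls and 268, 232 and 257 with WY, a log2 change of 3.38 ± 0.56 (adjusted p = 0.000592). The muscle sum of those WY mice was 295 to 312, within the range of the other livers, and without the 3 arrays with muscle signal, one of which was the control at 57.5, the change was 4.02 (adjusted p = 1.04e-05).

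Among the brightest probe sets of each complex, Uqcrq of complex III read 3279.5, 4011 and 3648 in wild-type controls and 3703, 3703 and 3949 with WY, and Ndufb5 of complex I 1336, 1429 and 1151 against 1568, 1626 and 1843. Uqcrq overlapped and was not called, while Ndufb5 was clear of overlap and rose by 0.37 on the log2 scale (adjusted p = 0.0194). Atp5l, the brightest of complex V, had a change of 0.18 in its brighter probe set (adjusted p = 0.185). In complex IV one Cox4i1 probe set rose by 0.44, with 322 to 347 in controls and 414 to 469.8 with WY, and the dimmer one had 0.02. Cox7a2, the isoform of liver, had 0.34 (adjusted p = 0.143) and Cox6b1 0.27, neither called. The heart and muscle isoform Cox7a1 lay at the floor in all 24 mice, mice 1, 16 and 17 included, and Cox8a lay at the floor in 23. Cox8b and Cox8c had changes of -0.33 and -0.03 in their brighter probe sets. Cox7a2l, the supercomplex protein, was within 247 to 492 in all mice and was not called for WY or HS in either genotype.

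**Figure D4:**
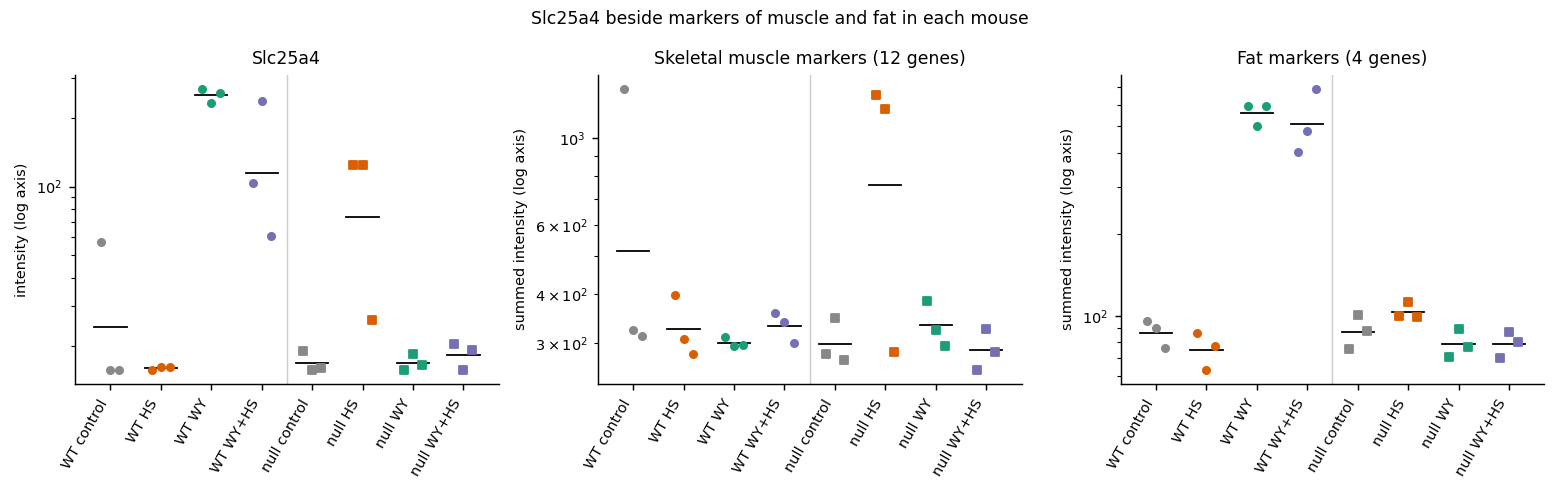
Intensity of Slc25a4 (left) and summed intensity of 12 skeletal muscle genes (middle) and 4 fat genes (right) in each mouse. The y axes are logarithmic and the x axes give the group, with a bar at each geometric mean. In the muscle panel mice 1, 16 and 17 stand highest, at sums of 1188 to 1339. In the Slc25a4 panel the wild-type WY group has the highest mean, with mice at 232 to 268 and muscle sums of 295 to 312. In the fat panel the wild-type WY and WY+HS mice stand highest, at 402 to 689.9.

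In null mice WY called no member, where 0.00805% of all probe sets were called up and 0 down. At an unadjusted p under 0.05, 0 were higher and 9 lower, and the methods' test called 1 lower. Cycs read 216, 148 and 189 with WY against 189, 217 and 183 in null controls, and Cox5b 1391, 1407 and 1483 against 1642, 1457 and 1512. The test of the difference in the WY change between genotypes called 24 members, all lower in null mice (23.5% of the members, against 2.94% of all probe sets called lower and 2.19% higher). The difference was -3.98 ± 0.25 for Cox6b2 (adjusted p = 3.25e-08), -3.38 ± 0.80 for Slc25a4 (adjusted p = 0.0172), -1.11 ± 0.18 for Cycs (adjusted p = 0.000951) and -0.71 ± 0.07 for Cox5b (adjusted p = 4.57e-06). It was -1.79 ± 0.23 for Atpif1 (adjusted p = 0.000133). By complex the 24 calls were 10 in complex I, 2 in III, 5 in IV and 4 in V, with Cycs, Atpif1 and Slc25a4 apart and none in complex II. The count was 15 without mouse 3, 24 without the 3 arrays, 11 with a common median and 10 with no scaling.

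When wild-type mice had WY and HS together, 23 members were called up and 0 down relative to controls (22.5%, against 5.23% up and 5.38% down of all probe sets). This comparison and that of WY alone share the control mice. Ndufb3 changed by 0.90, Ndufc1 by 0.89, Cycs by 0.97, Uqcr11 by 0.68, Cox5b by 0.52, Cox6a1 by 0.50 and Cox6b2 by 3.42 on the log2 scale. Sdhc, at 0.21, was again the 1 call in complex II, and in complex V the calls were Atp5mpl (0.43), Atp5a1 (0.38) and Atp5l (0.28). Without mouse 3 the count was 14, without mouse 11 it was 15, without the 3 arrays with muscle signal it was 17, and it was 14 with a common median, 13 by the methods' test, 15 with the spread of the groups compared alone and 3 with no scaling. The HS step itself, WY+HS against WY, called no member in wild-type mice (0.274% up and 0.153% down of all probe sets, and 2 higher and 10 lower members at an unadjusted p under 0.05, with 0 by the methods' test). With no scaling 35 were called lower, where the median of all probe sets also moved by -0.369. Atpif1 read 334, 265 and 361 with WY and 202, 234 and 204 with WY+HS, below in every mouse, with a change of -0.57 ± 0.17 and an adjusted p of 0.18.

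In null mice WY+HS against controls called no member (0.0161% up and 0 down of all probe sets, and 0 higher and 7 lower members at an unadjusted p under 0.05, with 0 by the methods' test). HS on top of WY also called none (0.00805% up and 0.0161% down, 2 higher and 2 lower at an unadjusted p under 0.05, and 1 lower by the methods' test). Ndufb8 read 711, 691 and 773 with WY and 627, 726 and 683 with WY+HS, where HS without WY had given 393, 389 and 426. Sdhb read 1292, 1425 and 1515 with WY and 1382, 1292 and 1474 with WY+HS, and the level of complex II was 9.54 ± 0.09. In both genes the WY+HS mice overlapped the WY mice and lay above the mice given HS alone. Complex I did not follow complex II. Its level with WY+HS was 8.55 ± 0.07, below every null control (8.72 ± 0.07), where HS alone had given 8.66 ± 0.06. This difference was not tested.

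The comparison of WY+HS with HS in null mice shares its HS mice with the comparison above. It called 18 members up and 14 down (17.6% and 13.7%, against 6.05% and 5.14% of all probe sets). Among the higher were Ndufb8 (0.75), Ndufv2 (0.56), Sdhb (0.55), Atp5o (0.80) and Cycs (0.46), and among the lower Atpif1 (-1.35), Ndufa5 (-0.72), Ndufb7 (-0.58) and Slc25a4 (-2.01). Ndufb7 read 1531, 1589 and 1136 after HS, with the high pair again in mice 16 and 17, and 1189, 1013 and 1109 in controls. Without the 3 arrays, with mouse 18 alone in the HS group, fewer members were called, as were fewer of all probe sets. The change of Atpif1 was then -1.12. The split was 20 up and 3 down with a common median and 0 up and 3 down with no scaling. It was 14 up and 6 down without mouse 16, 15 and 6 without mouse 17, and 13 and 7 without mouse 24.

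The test of whether HS acted differently in null mice with and without WY called 8 members with a higher HS change under WY and 1 with a lower one (7.84% and 0.98%, against 1.16% and 0.684% of all probe sets). The 8 were Ndufb6, Ndufb8, Ndufv2, Ndufaf4, Atp5j, Atp5o and both Atp5c1 probe sets, and the 1 was Atpif1. The difference was 0.71 ± 0.16 for Ndufb8 (adjusted p = 0.031), 0.93 ± 0.20 for Atp5o (adjusted p = 0.0244) and -1.01 ± 0.23 for Atpif1 (adjusted p = 0.0343). Only 1 was called without the 3 arrays and none with no scaling or with the spread of the groups compared alone. The count was 3 without mouse 13, 14, 20 or 24, 4 without mouse 16 or 17, and 15 without mouse 18, with 11 higher and 4 lower.

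Between untreated genotypes no member was called (0.322% up and 0.523% down of all probe sets in null mice). At an unadjusted p under 0.05, 19 were higher and 6 lower in null mice, and the methods' test called 1 higher. No member was called without the 3 arrays either. Ndufa10 was at 2.41 ± 0.57 with an adjusted p of 0.0616, and its 3 null mice, at 119, 232 and 59.6, lay above the 3 wild-type mice. Atpif1 was at 0.55 ± 0.17 (adjusted p = 0.15).

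Other mitochondrial genes were read from lists of the same pathway. Each count is read against the share of all probe sets, 3.89% down and 3.18% up with HS in null mice and 5.59% up and 5.19% down with WY in wild-type mice. Of 22 probe sets for electron input and transport, 5 fell and 0 rose with HS in null mice (22.7% down). None of the 22 was called for HS without the 3 arrays, where 0.596% of all probe sets were called down and 1.18% up. Etfdh and Etfb, which bring electrons from fatty acid oxidation into the chain, changed by -0.75 ± 0.15 and -0.25 ± 0.07, Coq9 of ubiquinone synthesis by -0.62 ± 0.12, and Slc25a5, the ADP/ATP carrier of liver and dividing cells, by -1.24 and -1.18 in 2 of 3 probe sets and by -0.13 in the brightest one, which was not called. In mouse 18 alone the values were -0.65 for Etfdh, -0.21 for Etfb, -0.48 for Coq9, and -1.01 and -0.91 for the 2 Slc25a5 probe sets. With WY in wild-type mice 6 of the 22 rose and 0 fell (27.3% up), and 6 did without the 3 arrays. The median change of this list was -0.19 with HS in null mice and 0.54 with WY in wild-type mice, where that of all probe sets was 0.

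Of 27 assembly and import probe sets, HS in null mice gave 1 rise (3.7%; Cox17, a copper chaperone of complex IV, 0.68) and 2 falls (7.41%; the import proteins Timm8b, -0.65, and Timm44, -0.45). None of the 3 was called without the 3 arrays, with values of 0.51, -0.55 and -0.23. WY in wild-type mice gave 6 rises (22.2%), among them Cox17, the cristae protein Immt and the import channel Timm23, and 3 without the 3 arrays. The called Immt probe set lay at the floor on 21 arrays, and the brighter one was not called (0.49, adjusted p = 0.397). Of 76 mitochondrial ribosome probe sets, 15 fell (19.7%) and 1 rose (1.32%) with HS in null mice. The counts were 0 and 1 (Mrpl50) without the 3 arrays, with a median change of -0.13 over the list. With WY in wild-type mice 8 of the 76 rose (10.5%) and 1 fell (1.32%), and 6 rose and 1 fell without the 3 arrays. Of 47 probe sets of the cytosolic ribosome, 3 fell (6.38%) and 1 rose (2.13%) with HS in null mice and none was called without the 3 arrays, while 4 rose with WY in wild-type mice (8.51%), and 2 without those arrays.

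Among 12 probe sets of regulators such as PGC-1 and ERR proteins, 3 lay at the floor on 23 or 24 arrays, Ppargc1a and Sirt1 among them. Of the rest, the deacetylase Sirt3 was the 1 call with HS in null mice, at -1.01 ± 0.27 (adjusted p = 0.0288), and -0.60 without the 3 arrays (adjusted p = 0.866). None was called with WY in wild-type mice, while Esrra was called lower without those arrays. Of the 9 probe sets for mitochondrial DNA upkeep and transcription, 4 lay at the floor on 23 or 24 arrays, that of Tfam and 2 of the 3 for Polrmt among them, and the other 5 gave no call in either.

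**Figure D5:**
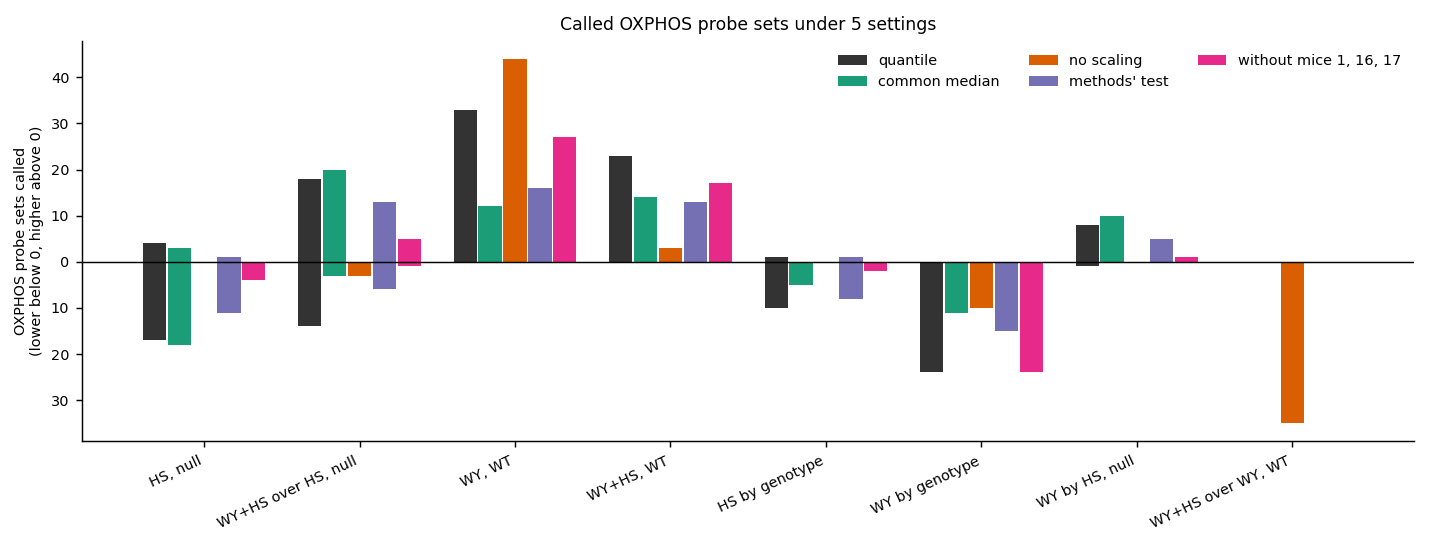
Number of member probe sets called up (above 0) and down (below 0) for selected comparisons. The settings drawn are the main one, a common median, no scaling, the methods' test, and without mice 1, 16 and 17. The setting with only the groups compared is not drawn. The 33 rises with WY in wild-type mice stay between 12 and 44 across these settings, while the 17 falls with HS in null mice go to 0 with no scaling and with only the groups compared, and to 4 without mice 1, 16 and 17.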

How the data were processed

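The members and gene lists were chosen with earlier results of these data known. The authors deposited 1 table of array intensity values, made with Affymetrix software and the Rosetta Resolver system. The way probes were summarised and scaled was not given in the sources used. Of 12488 rows, 66 had no value. Of the values, 24.1% were at or below 0, and array medians ran from 15.2 to 40.5, so the number of mice and the signal over background limit precision. Probe sets were named from the platform annotation, which can be old: 10833 had 1 symbol, 396 several and 1193 none.

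The 24 arrays were quantile normalized. Values below the floor of 15.7, the absolute size of the 10th percentile, were raised to it and log2 was taken. A model with 1 mean per group was fitted with limma 3.58.1 in R 4.3.3 over all 24 arrays (16 residual degrees of freedom), and p-values were adjusted by Benjamini-Hochberg within each of 13 comparisons over 12422 probe sets, with calls at 0.05. Each array was 1 mouse, and no batch was given. Named members were the up to 3 called members per complex with the largest changes in a comparison, the brightest of each complex, the tissue isoforms, the Sdh genes, Cycs, Cyc1, Atpif1 and Slc25a4; others were chosen after their values were seen. Alternatives were a common median, no scaling, floors at the 5th and 20th percentiles, a filter at the 30th, a trended robust spread, the groups compared alone, the methods' test and leaving out each mouse. The fit was tested on simulated data. Promoter windows came from RefSeq on GRCm38.p6.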

Additional observations from a re-analysis of the deposited data

Results flagged for a closer look

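These members are listed because the response to 1 treatment differed between the groups that received it, by the test of the difference itself (limma, adjusted p under 0.05). The HS change in null mice minus that in wild-type mice was -0.88 for Cycs, -0.86 for Ndufb8, -0.61 for Ndufb6, -0.59 for Ndufv2, -0.90 for Ndufaf4, -0.95 for an Atp5c1 probe set, -0.83 for Atp5o and -0.62 for Atp5j on the log2 scale, and 1.02 for Atpif1. The WY change in null mice minus that in wild-type mice was -3.38 for Slc25a4, -1.11 for Cycs, -1.92 for an Ndufv2 probe set, -1.80 for an Ndufa3 probe set, -0.996 for Ndufv3, -0.78 for Uqcr11, -0.65 for Uqcrc2, -3.98 for Cox6b2, -1.88 for Cox5a, -0.77 for Cox6a1, -1.48 for Atp5pb, -0.97 for an Atp5l probe set, -0.78 for Atp5g2 and -1.79 for Atpif1. The HS change with WY minus that without WY in null mice was 0.71 for Ndufb8, 0.62 for Ndufb6, 0.60 for Ndufv2, 0.82 for Ndufaf4, 0.93 for Atp5o, 0.92 for an Atp5c1 probe set, 0.67 for Atp5j and -1.01 for Atpif1. The Ndufv2 probe set in the WY test is the dimmer of a pair. With WY its range was 76.8 to 111 in wild-type mice and 25.7 to 27.6 in null mice. The brighter one had ranges of 1097 to 1216 and 979.7 to 1072.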

How the results depend on the processing

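No paired analysis was possible because no mouse number is shared between groups. Counts of called members are given. With a common median they were 12 for WY in wild-type mice, 14 for WY+HS, 5 for the genotype difference in HS and 11 in WY. With no scaling they were 0 for HS in null mice, 3 for WY+HS and 35 for HS on WY in wild-type mice, 3 for WY+HS against HS in null mice, and 0, 10 and 0 for the differences in HS by genotype, WY by genotype and HS by WY. The median of all probe sets then moved by 0.192 for HS and 0.116 for WY in wild-type mice. With the groups compared alone, counts were 0 for HS, 1 for HS on WY and 2 for WY+HS against HS in null mice, 15 for WY+HS in wild-type mice, and 3 and 0 for the HS differences by genotype and by WY. The methods' test gave 12 for HS, 1 for WY, 1 for HS on WY and 19 for WY+HS against HS in null mice, 16 for WY and 13 for WY+HS in wild-type mice, 1 between untreated genotypes, and 15 and 5 for the differences in WY by genotype and HS by WY. The floor at the 5th percentile gave 1 for HS on WY in wild-type mice, the floor at the 20th and the filter each 1 between genotypes, and the robust trend 6 for HS by genotype. Without the 3 arrays with muscle signal, an alternative chosen after seeing the data, counts were 4 for HS and 6 for WY+HS against HS in null mice, and 2 and 1 for the HS differences. Leaving out 1 mouse gave 13 to 28 for HS in null mice, 18 to 34 for WY and 14 to 25 for WY+HS in wild-type mice, 20 to 33 for WY+HS against HS in null mice, 4 to 14, 15 to 27 and 3 to 15 for the HS by genotype, WY by genotype and HS by WY differences, 0 to 2 between genotypes, and 0 to 1 for WY and WY+HS in null mice and HS on WY in wild-type mice. For HS in null mice, the changes in level of complexes I, II, III and V were -0.0568, -0.331, -0.0548 and -0.11 in the main setting. With a common median they were -0.197, -0.484, -0.23 and -0.248, and complex IV went from -0.0746 to -0.171. Without the 3 arrays complexes I, III and V had -0.127, -0.184 and -0.245. For WY in wild-type mice, complexes I to V had 0.293, -0.0606, 0.126, 0.332 and 0.296 with a common median and 0.793, 0.478, 0.665, 0.784 and 0.833 with no scaling, and complex IV 0.337 and 0.569 with floors at the 5th and 20th percentiles. Of 1611 alternatives for 95 named values, 1112 kept the call, 499 lost it, and 0 reversed.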
